A study of Mus musculus with 84 samples.

Results

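RNA was sequenced from spinal cord cells sorted as astrocytes at the peak and in the chronic phase of experimental autoimmune encephalomyelitis (EAE), a mouse model of multiple sclerosis, and the 2 stages were compared directly, without the control libraries. The comparison rests on every spinal cord library of the 2 stages in the EAE count table, 6 labelled E4 and 6 labelled Ech, which are 12 of the 84 samples of the series and of the 66 samples of its EAE experiment. Female C57BL/6J mice, 10 weeks old at immunization, received a peptide of myelin oligodendrocyte glycoprotein in complete Freund's adjuvant and pertussis toxin. E4 mice were killed at clinical score 4, with paralysed hind legs, and Ech mice in chronic disease. Cells of the cervical and thoracic cord were sorted as CD11B- CD45- ACSA-2+ GLAST-, so that myeloid and other blood-derived cells were gated out, and cells of up to 2 mice were pooled for a library. The other groups used here were spinal cord of unimmunized mice (C, 5 libraries), spinal cord at score 1 (E1, 5 libraries) and hindbrain cells of the same 2 stages, sorted as GLAST- (12 libraries) or GLAST+ (10 libraries). The age at death is not given for either stage, and no transgene or engineered allele is named for any group. For 1 E1 library the title gives spinal cord and the region label hindbrain, and E1 is used in plots and in the shared spread of the 66-library fit only.

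In EAE, T cells primed against myelin enter the cord and release interferons, and glia respond with interferon-stimulated genes and with the proteins that present antigen on MHC class I. Myelin is lost around the infiltrates, and oligodendrocyte precursor cells, which carry the PDGF receptor alpha, can divide and pass through a committed and a newly formed stage before they make myelin again. Astrocytes, which take up glutamate and potassium and line vessels with endfeet, become reactive and raise the filament protein GFAP. ACSA-2 is an epitope of the ATP1B2 subunit of the sodium-potassium pump, and GLAST is the glutamate transporter encoded by Slc1a3.

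The labelled cell type was checked against marker genes first. Levels are given as counts per 1000000 counts of a library with TMM scaling (CPM), corrected for library composition, and the 3′ end counting of these libraries makes a level nearly independent of transcript length. Library totals ran from 1772622 to 4895220 counts in E4 and from 2173479 to 4209741 in Ech, so that 3 counts, taken as the floor of detection, corresponded to 0.634 to 1.69 CPM. The summed level of 12 astrocyte markers was 16918 to 25332 CPM in the control cord libraries, 2882.5 to 4569.9 in E4 and 3785 to 6595 in Ech. A large part of the sum in disease was S100b, which oligodendrocyte lineage cells also express, at a mean of 2208 CPM in E4 and 3989 in Ech. From E4 to Ech 8 of the 12 had a negative and 4 a positive log2 fold change, so the higher sum in Ech is not a trait of the list. Defining astrocyte genes were low in both disease groups: Aqp4, the water channel of endfeet, lay at 834 to 1014 CPM in controls, 11.3 to 195 in E4 and 25.5 to 96.6 in Ech, and Gja1, the main astrocyte connexin, at 847 to 1170, 2.26 to 81.7 and 7.2 to 48.9. The sum of 10 oligodendrocyte markers was 14358 to 41875 CPM in control cord libraries, 30361 to 77684 in E4 and 25393 to 41609 in Ech. The controls thus held these genes too. The Ech values lay within the control range only through control replicate 3, which held the 41875. The median was 18344 CPM in controls and 31016 in Ech, and every other control lay below all Ech libraries. Both disease groups are therefore described below as the sorted GLAST- cells, since oligodendrocyte genes far exceeded astrocyte genes in all 12 libraries. In bulk samples, fewer cells of a type and less RNA per cell cannot be told apart.

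**Figure D1:**
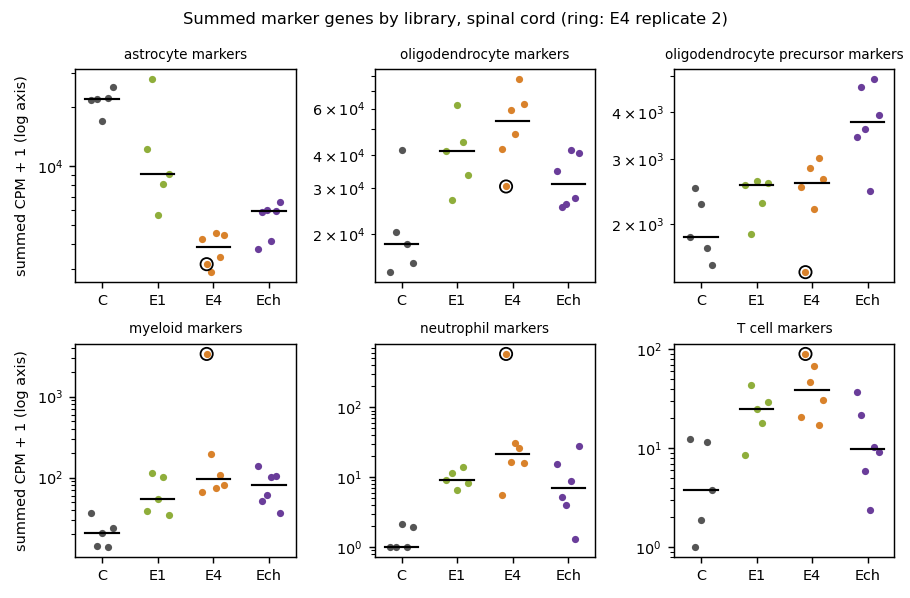
Each point is the summed level of a marker list in a spinal cord library (CPM + 1, log axis) for the C, E1, E4 and Ech groups, and the bars are medians. The ringed E4 replicate 2 lies at 3364 CPM for myeloid and 579 CPM for neutrophil markers, above every other library shown.

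E4 replicate 2 stood apart. Its myeloid marker sum was 3364 CPM against 66 to 192 in the other 5 E4 libraries and 35.6 to 136 in Ech, its neutrophil sum was 579 CPM against 4.51 to 30.3 and 0.30 to 27.1, and its mean correlation with its own group was the lowest of the 12 (0.839 across 8646 genes). Ech replicate 4 was nearly as like the E4 libraries (0.883) as its own group (0.889). Library titles also end in a number that the labels do not define. It was at most 56 in 5 E4 and 2 Ech libraries and above 56 in 1 E4 (replicate 3), 4 Ech and all 5 control cord libraries. It is thus unequally spread over the stages, and the list counts below are given again with a term for that split and without E4 replicate 2. An earlier identifier in the titles, which the labels do not define either, differed between all 12 libraries and recurred in hindbrain libraries of the same stage. The labels do not say whether it marks an animal, so p-values measure the spread between these libraries.

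Of 17461 genes tested, 506 (2.9%) rose and 471 (2.7%) fell from E4 to Ech at an adjusted p below 0.05. Every list count below is to be read against these shares, and single calls in a list are given as values only. With a log2 fold change also above 1 or below -1, 457 (2.62%) were DEGs higher and 267 (1.53%) DEGs lower in Ech. For 546 genes (3.13%) the 6 and 6 libraries did not overlap, with 311 higher and 235 lower in Ech, and the median log2 fold change of all genes was 0.02. With the term for the title number, 170 genes rose and 126 fell, and 294 of the 977 genes kept their call. Without E4 replicate 2, 466 of the 506 and 371 of the 471 were still called. Within the libraries numbered up to 56 no gene passed. There 1179 genes had an unadjusted p below 0.05, where chance alone gives about 1 in 20 of those tested. The number tested in that set is not given here and genes are not independent, so no excess is read from this. The set above 56 holds only 1 E4 library. Of the 977 genes, 944 had the same direction in both sets. They were called in these same libraries, so this agreement was largely fixed in advance and is no separate check.

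The 10 largest increases without overlap of the libraries were mostly in genes at very low levels at the peak. Kif26a, a kinesin family gene, was at 0 to 0.899 CPM (median 0) in E4 and 2.82 to 10.8 (median 7.69) in Ech, a log2 fold change of 4.88 ± 0.96 (SE, adjusted p = 0.00573). Prdm8, a transcriptional regulator of neural development, lay at 0 to 0.564 CPM in E4 and 0.909 to 7.82 in Ech, with Ech replicate 4 at the low end. Npb, which encodes neuropeptide B, went from a median of 0.449 to 7.23 CPM, Igfbp7, a secreted binding protein of insulin-like growth factors, from 0.227 to 7.19, and Dpysl4, of a family that organizes the growth cone cytoskeleton, from 0.579 to 11.8. Syt16 (log2 fold change 3.75), Zcchc12 (3.74), Tmem132e (3.70) and Gpr27 (3.03) complete the low-level set. Tubb2b, a beta-tubulin of immature neural cells, was the abundant member, at 7.39 to 299 CPM (median 68.8) in E4 and 371 to 1690 (median 945) in Ech, without overlap (3.10 ± 0.68, adjusted p = 0.0108). Its close paralogue Tubb2a can share reads with it.

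Of the 10 largest decreases without overlap, 6 kept their call without E4 replicate 2, and Usp18 and Ifi27l2a of these are described with the interferon genes. Zbtb16, a zinc finger factor that glucocorticoids induce (chr9:48654297-48836222, GRCm38, minus strand), was at 37.2 to 79.7 CPM (median 54.1) in E4 and 6.3 to 14.6 (median 10.5) in Ech. Its log2 fold change was -2.39 ± 0.27 (adjusted p = 0.000187), and the groups lay far apart. Sgk1, the serum- and glucocorticoid-regulated kinase, was at 286 to 777 CPM (median 518) in E4 and 44.9 to 210 (median 122) in Ech (-2.21 ± 0.35, adjusted p = 0.00118). Elmsan1 changed by -2.01. Runx3, a transcription factor of T cells, was at 0.455 to 21.1 CPM in E4 and at 0 in all 6 Ech libraries. By group means it was at least 6.36-fold lower against a floor of 3 counts per library, but its lowest E4 value lay under that floor. Dapp1, Tmem173, Arhgap45 and F11r also belonged to the 10 largest decreases, but E4 replicate 2 held 26.1, 58, 35.9 and 97.9 CPM of them and none kept its call without it (adjusted p = 0.30, 0.18, 0.16 and 0.28).

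Of 8 markers of oligodendrocyte precursors 5 rose and none fell, with a median log2 fold change of 1.25 against 0.02 for all genes. Pdgfra, the receptor that keeps precursors dividing (chr5:75152292-75198215, plus strand), was at 63.5 to 151 CPM (median 77) in E4 and 153 to 352 (median 327) in Ech. Every Ech library exceeded every E4 library (1.55 ± 0.26, adjusted p = 0.00175). C1ql1, a secreted C1q-like protein made by precursors (chr11:102939264-102946688, minus strand), was at 24.8 to 54.8 CPM (median 39.9) and 68.1 to 248 (median 144), again without overlap (1.92 ± 0.28, adjusted p = 0.000784). Gpr17, a receptor of committed precursors, was at 220 to 427 CPM in E4 and 258 to 1223 in Ech, and the groups overlapped because Ech replicates 1 and 4 stayed at 386 and 258 (1.31 ± 0.31, adjusted p = 0.0192). Cspg4, the NG2 proteoglycan, rose by 1.22 and Neu4, a sialidase, by 1.28. The transcription factors shared by the whole lineage gave smaller values, with Olig1 at 0.24 (adjusted p = 0.602), Olig2 at 0.74 (0.128) and Sox10 at -0.05 (0.917). The precursor marker sum was 1485 to 3008 CPM in E4, 2453 to 4918 in Ech and 1553 to 2495 in controls.

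A longer list of 30 precursor and committed precursor genes, added after the values were seen, held 18 genes that rose and none that fell. Its summed level was 1381 to 3362 CPM in E4 and 3362 to 9420 in Ech, where the lowest library was replicate 4. Marcks, an actin-binding protein at the membrane (chr10:37133375-37138920, minus strand), was at 95.7 to 246 CPM (median 166) in E4 and 432 to 1066 (median 776) in Ech (2.18 ± 0.24, adjusted p = 0.000187). Cacng4, an AMPA receptor auxiliary subunit (chr11:107732357-107794557, minus strand), was at 136 to 206 CPM (median 156) and 244 to 882 (median 703), a change of 1.99 ± 0.24 (adjusted p = 0.00022). Neither gene overlapped between stages, and in both the lowest Ech value was replicate 4. Dcx (2.51), Dpysl3 (2.25), Cspg5 (2.21), Fabp7 (2.07), Sox4 (1.51) and Sox6 (1.10) also rose. Of 15 tested genes of newly formed oligodendrocytes, a list added in the same way, 3 rose (Enpp6 by 1.44, Fyn by 1.17 and Mpzl1 by 1.05) and none fell. With the title-number term 2 of the 8 markers, 9 of the 30 and 1 of the 15 passed, and without E4 replicate 2, 5, 20 and 4 did. The marker count was 3 without E4 replicate 6 or Ech replicate 2 or 5, and the newly formed count 7 without E4 replicate 1.

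**Figure D2:**
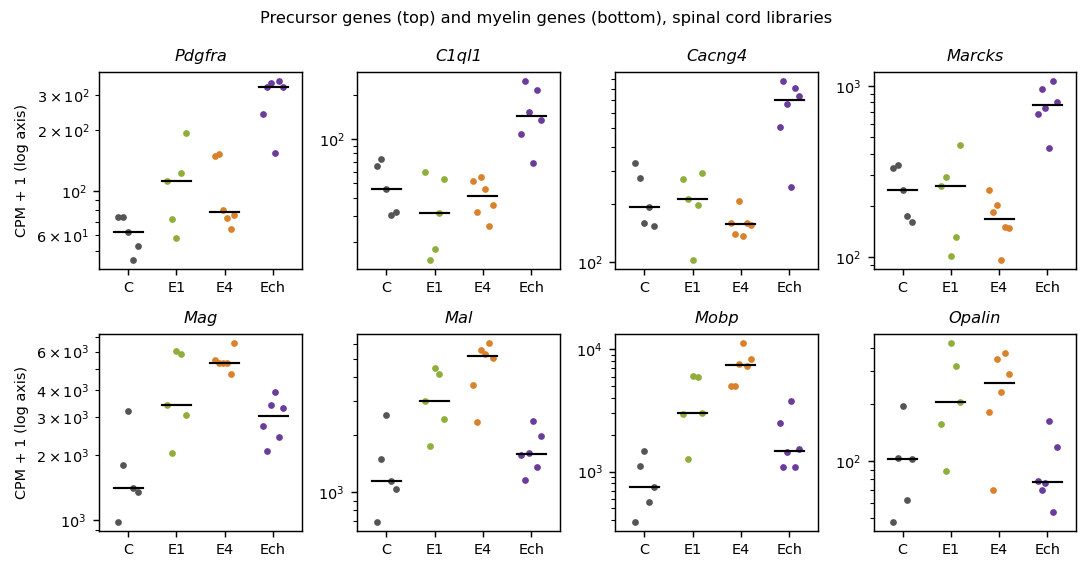
Level in each spinal cord library (CPM + 1, log axis) of 4 precursor genes (top row) and 4 myelin genes (bottom row) at C, E1, E4 and Ech, with medians as bars. Marcks lies at 95.7 to 246 CPM in E4 and 432 to 1066 in Ech, while Mobp lies at 5022 to 11330 and 1089 to 3813.

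Genes of mature oligodendrocytes were among those that fell. Of 10 mature oligodendrocyte markers 6 fell and none rose, with a median log2 fold change of -0.85. Mobp, a basic protein of compact myelin (chr9:120149707-120181484, plus strand), was at 5022 to 11330 CPM (median 7516) in E4 and 1089 to 3813 (median 1482) in Ech, without overlap (-1.96 ± 0.32, adjusted p = 0.00164). Mal, a membrane raft protein of myelin, was at 2329 to 6082 CPM and 1149 to 2373, and the groups touched only at E4 replicate 2 and Ech replicate 4 (-1.49 ± 0.25, adjusted p = 0.00188). Mag, the adhesion molecule at the axon-myelin contact, was at 4729 to 6591 CPM and 2094 to 3929 (-0.88 ± 0.20, adjusted p = 0.0139). Opalin changed by -1.43, Cldn11 by -1.01 and Cnp by -0.82. Mbp gave -0.75 ± 0.33 (adjusted p = 0.191) and Mog, whose peptide was used to immunize, -0.83 ± 0.26 (0.0643), and without E4 replicate 2, which held the lowest Mbp and Mog values of its group, these became -0.92 (0.038) and -0.98 (0.0069). Of 36 mature oligodendrocyte genes, a list added after the values were seen, 11 fell and none rose, among them Tmod2 (-1.71) and Cntn2 (-1.51). The summed level of these 36 genes was 68778 to 84761 CPM in E4 and 30368 to 69220 in Ech, with Ech replicate 4 the highest. With the title-number term 2 of the 10 and 7 of the 36 passed, and without E4 replicate 2, 8 and 16 did. The marker count was 3 without Ech replicate 2 or 5, and the count of 36 genes gave 17 without Ech replicate 4.

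Genes of mitosis were among those that rose. The promoters of 2 of the members that rose are shown because they hold the 2 letter patterns common to mitotic genes, CCAAT, bound by the factor NF-Y, and TTTGAA, the core of the cell cycle genes homology region. Sequences are from RefSeq (GRCm38.p6), 250 bases before the annotated start, 5′ to 3′ on the gene's strand, and capitals mark either pattern on either strand. Cdk1 is read from chr10:69352913-69353162 (minus strand) and Ube2c from chr2:164769679-164769928 (plus strand), where a CCAAT on each strand overlap once.
Cdk1: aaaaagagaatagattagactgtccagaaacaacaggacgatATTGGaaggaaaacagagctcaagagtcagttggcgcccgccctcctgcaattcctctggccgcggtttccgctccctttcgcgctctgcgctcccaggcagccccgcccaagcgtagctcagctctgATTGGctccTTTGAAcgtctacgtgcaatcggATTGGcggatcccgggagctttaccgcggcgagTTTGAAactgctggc
Ube2c: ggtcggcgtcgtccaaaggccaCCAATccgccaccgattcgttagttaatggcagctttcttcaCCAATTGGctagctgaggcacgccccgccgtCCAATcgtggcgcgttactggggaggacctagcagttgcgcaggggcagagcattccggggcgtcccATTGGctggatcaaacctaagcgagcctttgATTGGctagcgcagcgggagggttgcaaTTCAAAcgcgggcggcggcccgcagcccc
Promoters were found for 16 of the 21 called mitosis members, and 12 of them (75%) held CCAAT, against 34.5% of 27025 promoters of the same length and 70.8% of the 48 members of the list with a promoter. TTTGAA stood in 5 of the 16 (31.2%), against 16.3% of all promoters and 37.5% of the list. A match is a description of these letters and not a site of binding.

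Of 58 mitosis genes 57 were tested, 20 rose and 1 fell, with a median log2 fold change of 1.38. Cdk1, the kinase that drives entry into mitosis, was at 6.22 to 27.1 CPM (median 9.05) in E4 and 29.0 to 77.8 (median 61) in Ech. The highest E4 library (replicate 1) lay just under the lowest Ech library (replicate 3), with no overlap (2.27 ± 0.37, adjusted p = 0.00149). Nusap1, a spindle protein, went from a median of 11 to 48 CPM (2.31 ± 0.42, adjusted p = 0.00328), although reads may be shared with its antisense neighbour Oip5. Cenpf, a kinetochore protein, was at 11.1 to 41.3 CPM and 35.4 to 81.8 and overlapped at E4 replicate 2 and Ech replicate 4 (1.60 ± 0.32, adjusted p = 0.00587). Cdca3 rose by 2.14, Cenpa by 2.34, Ube2c by 2.26 and Ccnb1 by 1.84. Pttg1, securin, fell by 0.56 on the log2 scale. Mki67, the usual marker of cycling cells, was at 5.46 to 105 CPM in E4 and 45.9 to 104 in Ech and did not pass (0.82 ± 0.47, adjusted p = 0.332), and E4 replicate 2 held the 105. Without that library it rose by 1.47 (adjusted p = 0.028).

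Of 40 DNA replication genes 4 rose and none fell, against 2.9% and 2.7% of all genes. Mcm6, of the replicative helicase, was at 5.83 to 11.3 CPM (median 6.92) in E4 and 19.1 to 44.4 (median 26.3) in Ech, without overlap (1.95 ± 0.31, adjusted p = 0.00128), and Dut, Mcm2 and Rfc3 rose by 1.63, 1.37 and 1.03. Of 33 regulators 2 rose, and both also did with the title-number term and without E4 replicate 2. Ccnd1, cyclin D1 (chr7:144929931-144939925, minus strand), was at 66.6 to 205 CPM (median 122) and 275 to 682 (median 471), without overlap (1.85 ± 0.26, adjusted p = 0.000614). Cdkn1c, the cyclin kinase inhibitor p57, which stops division, was at 9.43 to 16.4 CPM (median 11.5) and 20.5 to 88.7 (median 54.6), also without overlap (2.20 ± 0.33, adjusted p = 0.000889). With the title-number term 6 mitosis and 2 replication genes passed, and without E4 replicate 2, 29 and 6 did. The mitosis count depended on the libraries of the fit: it was 7 without Ech replicate 2 or 5, 9 without E4 replicate 3, 10 without E4 replicate 6 and 11 without Ech replicate 1, and the replication count was 2 without E4 replicate 3 or Ech replicate 2 or 5. When all 66 EAE libraries shared 1 estimate of the spread, none of the 57 rose and 1 fell.

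Interferon-stimulated genes and genes of the MHC class I pathway were among those that fell. The promoters of Bst2 and B2m are shown for the pattern GAAANNGAA, the core of the interferon-stimulated response element, in capitals. Bst2, which encodes tetherin, an antiviral membrane protein, is read from chr8:71537473-71537722 (minus strand), where 2 copies overlap, and B2m, the light chain of MHC class I, from chr2:122147437-122147686 (plus strand).
Bst2: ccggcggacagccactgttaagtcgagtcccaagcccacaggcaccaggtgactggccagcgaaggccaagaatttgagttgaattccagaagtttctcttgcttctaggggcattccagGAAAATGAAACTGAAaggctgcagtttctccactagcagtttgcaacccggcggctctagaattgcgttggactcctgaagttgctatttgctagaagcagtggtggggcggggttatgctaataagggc
B2m: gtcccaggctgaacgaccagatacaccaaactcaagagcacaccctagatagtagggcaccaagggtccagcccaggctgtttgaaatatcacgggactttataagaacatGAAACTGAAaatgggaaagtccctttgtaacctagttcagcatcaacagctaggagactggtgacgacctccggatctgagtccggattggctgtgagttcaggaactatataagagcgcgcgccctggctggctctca
The pattern stood in 2 of the 4 called interferon-stimulated genes with a promoter entry (50%), in 39.3% of the 28 list members with one, in 1 of the 5 called MHC class I genes (20%) and in 7.16% of the 27025 promoters.

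Of 40 interferon-stimulated genes 39 were tested, 8 fell and none rose, with a median log2 fold change of -0.90. Usp18, the protease that removes ISG15, was at 29.6 to 62.6 CPM (median 37.1) in E4 and 2.47 to 21.4 (median 7.66) in Ech. No library overlapped (-2.07 ± 0.41, adjusted p = 0.00564). Ifi27l2a was at 35.0 to 108 CPM and 4.86 to 20.9 (-2.03 ± 0.36, adjusted p = 0.00265), and Xaf1 at 36.1 to 101 and 3.3 to 34.6 (-1.67 ± 0.40, adjusted p = 0.02). Stat2, a subunit of the interferon response factor, was at 93.7 to 147 CPM in E4 and 24.7 to 106 in Ech, where replicate 1 alone reached the E4 range (-1.27 ± 0.32, adjusted p = 0.0229). Bst2, Rtp4 and Irf9 changed by -1.55, -1.25 and -0.89. The count was 16 without Ech replicate 1, 3 without Ech replicate 2 or 5, 4 without E4 replicate 6 or Ech replicate 3 or 6, and 5 without E4 replicate 1 or 4. Of 22 tested interferon-gamma GTPases and regulators 1 fell, against 2.7% of all genes. This was Igtp, at 497 to 1014 CPM in E4 and 18.6 to 528 in Ech, where replicate 1 again was highest (-1.72 ± 0.49, adjusted p = 0.043). Its reads can be shared with the overlapping gene Irgm2.

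Of 21 tested members 5 fell and none rose (median log2 fold change -0.68). B2m was at 1803 to 2814 CPM (median 2401) in E4 and 670 to 1471 (median 964) in Ech (-1.25 ± 0.22, adjusted p = 0.00237). H2-K1 and H2-D1, the classical heavy chains of this strain, were at 1959 to 3418 and 1086 to 2350 CPM in E4 and 746 to 1429 and 682 to 998 in Ech, and none of the 3 genes overlapped between stages. Their log2 fold changes were -1.16 ± 0.21 (adjusted p = 0.00364) and -1.01 ± 0.21 (0.00876), with the limit that H2 genes share sequence. Tapbp, tapasin, which loads peptides, was at 176 to 484 CPM and 38.7 to 179 and overlapped at E4 replicate 5 and Ech replicate 4 (-1.56 ± 0.32, adjusted p = 0.00715), and Tap1, the peptide transporter, changed by -1.54. Tapbp overlaps Zbtb22 on the same strand, and B2m lies antisense to Patl2. Control cord held 68.2 to 94.3 CPM of B2m and 0 to 8.2 of Usp18, so that the chronic levels of B2m were above all controls and those of Usp18 overlapped them. With the title-number term 1 of the 39 interferon-stimulated, none of the 22 and 3 of the 21 class I genes fell, and without E4 replicate 2, 9, 1 and 5 did.

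**Figure D3:**
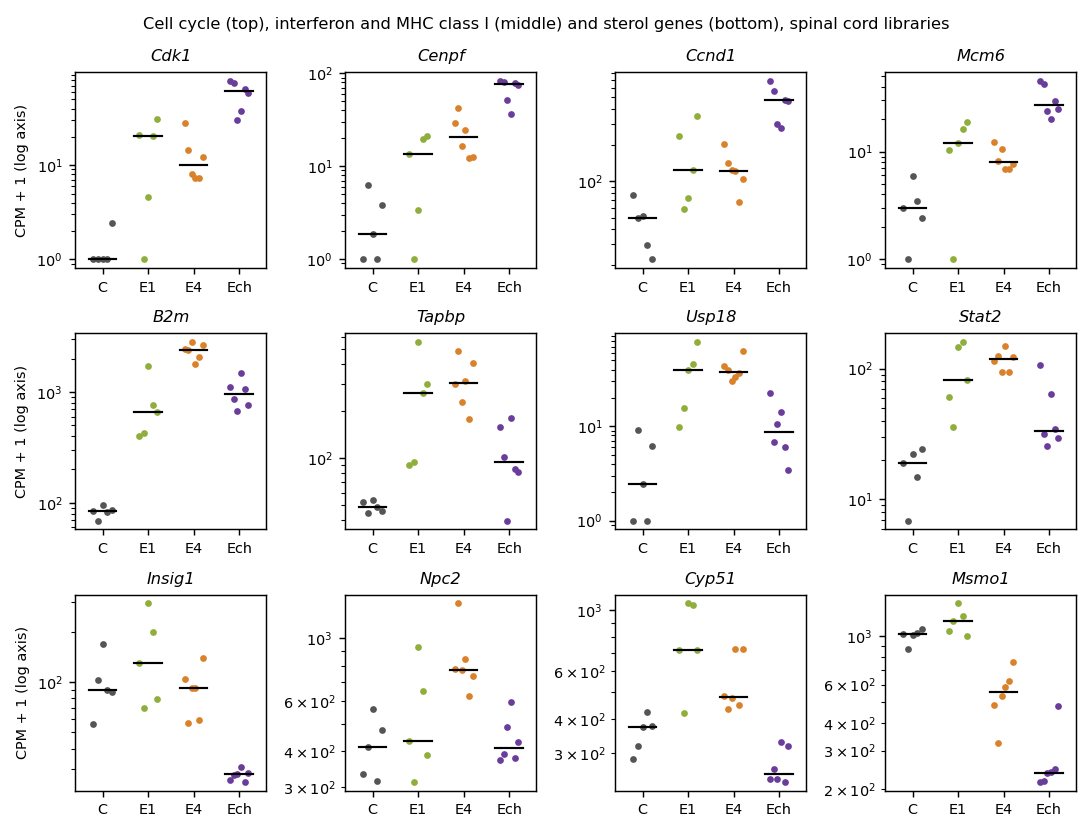
Level in each spinal cord library (CPM + 1, log axis) of genes of the cell cycle (top), interferon response and MHC class I (middle) and sterol metabolism (bottom) at C, E1, E4 and Ech, with medians as bars. Cdk1 lies at 29.0 to 77.8 CPM in Ech and at or below 27.1 in E4, and Insig1 at 24.3 to 30.0 CPM in Ech and 56.2 or more in E4.

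Of 29 tested genes of sterol regulation, lipid synthesis and export 4 fell and none rose, while 10 of the 29 had a positive log2 fold change. Insig1, which retains the sterol-sensing SREBP complex in the endoplasmic reticulum and is itself an SREBP target (chr5:28071363-28078662, plus strand), was at 56.2 to 138 CPM (median 91) in E4 and 24.3 to 30.0 (median 27.0) in Ech. The 6 Ech values were tightly grouped and all below E4 (-1.75 ± 0.22, adjusted p = 0.000277). Npc2 and Npc1, which carry cholesterol out of lysosomes, changed by -0.95 and -0.73. Of the 19 synthesis enzymes 6 fell and none rose (median -0.62), and 2 had a positive value. Cyp51, the lanosterol demethylase, was at 436 to 721 CPM in E4 and 234 to 327 in Ech, without overlap (-1.03 ± 0.19, adjusted p = 0.00328). Msmo1 changed by -1.03, Fdps by -1.05, Sc5d by -0.96 and Pmvk by -0.81. Hmgcs1, of the early steps and named after its value was seen, gave -0.30 ± 0.21 (adjusted p = 0.438). With the title-number term 2 of the 29 and 1 of the 19 fell, and without E4 replicate 2, 5 and 7 did, while 2 of the 29 then rose. The pattern TCACNCCAC, a sterol element, stood in none of the 4 called synthesis enzymes with a promoter entry and in 1.04% of all promoters.

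**Figure D4:**
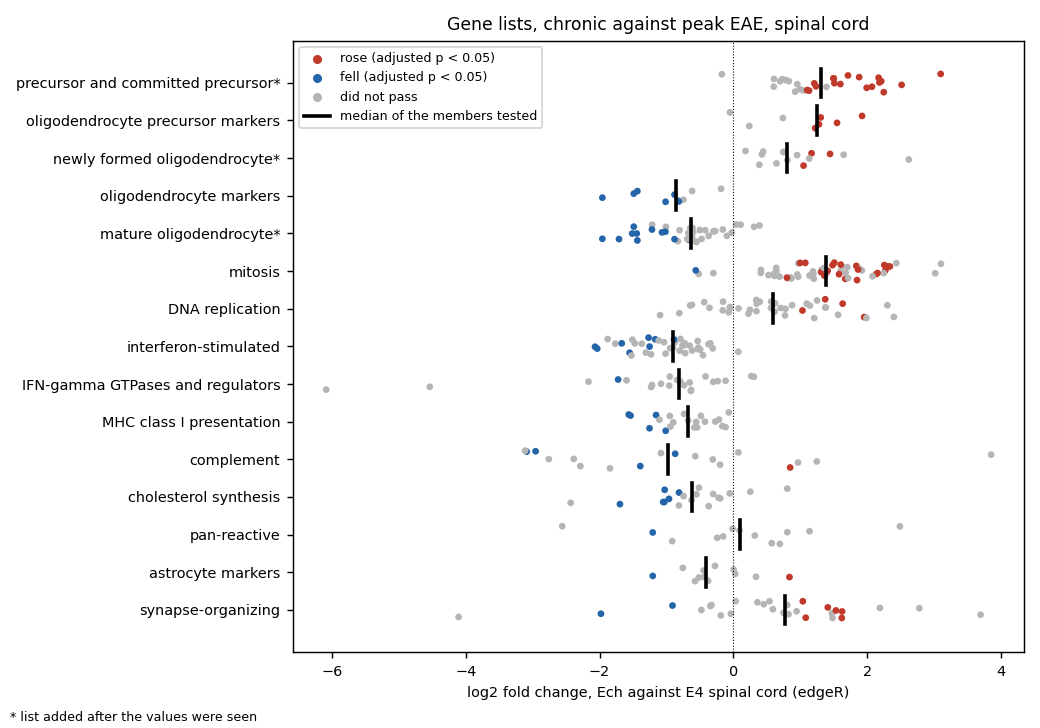
Log2 fold change from E4 to Ech of each tested member of 15 gene lists, where red points rose, blue points fell (adjusted p below 0.05), grey points did not pass and black bars are list medians. Medians run from 1.38 for mitosis to -0.98 for complement, and the 3 lists marked with an asterisk were added after the values were seen.

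Of 12 astrocyte markers 1 rose and 1 fell, against 2.9% and 2.7% of all genes, at a median log2 fold change of -0.41. Gfap, the astrocyte filament protein (chr11:102887336-102900912, minus strand), was at 85.2 to 152 CPM (median 95.5) in E4 and 18.8 to 82.5 (median 43.8) in Ech, without overlap (-1.21 ± 0.32, adjusted p = 0.031), and at 26.9 to 69.1 CPM in controls. This call held in 6 of the 12 fits that left out a library. S100b, a calcium-binding protein of astrocytes that oligodendrocyte lineage cells also express, was at 1354 to 3528 CPM (median 1969) and 2428 to 4873 (median 4280), and E4 replicates 1 and 6 lay inside the Ech range (0.84 ± 0.24, adjusted p = 0.0452). The direction of the marker list differed between the title-number sets: its median was -0.82 within the libraries numbered up to 56 and 0.64 above 56. The latter set holds only 1 E4 library, so it cannot settle the direction. Slc1a3, the gene of the GLAST epitope used to gate, gave 0.03 ± 0.29 (adjusted p = 0.973), Slc1a2 -0.28 (0.678), Aldh1l1 -0.57 (0.674), Fgfr3 0.00 (0.998), Gja1 -0.44 (0.725) and Aqp4 -0.51 (0.569). Among 39 receptors and markers 6 rose, led by Ntrk2, the BDNF receptor TrkB, at 48.5 to 71.2 CPM in E4 and 83.6 to 165 in Ech (1.19 ± 0.19, adjusted p = 0.00127), and by Ncan, Grm5 and Bcan (1.71, 1.5 and 1.23). Precursor cells also express these genes. Gfap and Ndrg2 (-0.61) fell. Of 20 junction, endfoot and ion genes Atp1b1 rose (2.39 ± 0.43, adjusted p = 0.00313) and Sdc4 and Hepacam fell (-1.48 and -0.96), of 28 transporters and enzymes Glul (-1.04) and Slc16a1 (-0.76) fell, and of 27 tested transcription factors Sox21 (2.30) and Nfib (0.66) rose. Apart from Ntrk2, Ncan, Grm5, Atp1b1 and Sox21, most of these calls were lost in some fits that left out a library, and the receptor count was 3 without E4 replicate 6 or Ech replicate 2 or 3. Under the title-number term none of the 12 markers passed, 3 receptors, 1 junction gene and 1 transcription factor rose, and none of these 4 other lists held a gene that fell. Without E4 replicate 2 the markers held 0 genes that rose and 1 that fell, the receptors 7 and 4, the junction genes 1 and 2, the transporters 1 and 3, and the transcription factors 3 and 0.

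Of 13 pan-reactive genes Gfap alone fell, of 11 tested LPS-reactive (A1) genes H2-D1 alone fell, and of 11 MCAO-reactive (A2) genes none passed. The genes called lower were 2.7% of all genes, and with lists of this size single calls are given as values only. Under the title-number term no pan-reactive gene passed and 1 A1 gene rose and 1 fell, and without E4 replicate 2 the counts of all 3 lists were as given. Among the A2 genes, S100a10 gave 1.18 (adjusted p = 0.147) and B3gnt5 0.84 (0.589). Serpina3n, an acute-phase protease inhibitor, was at 1675 to 2160 CPM in E4 and 388 to 3316 in Ech against 12.6 to 32.2 in controls. Its stages did not separate (-0.01 ± 0.35, adjusted p = 0.99). Lcn2, lipocalin 2, gave -2.56 ± 0.90 (adjusted p = 0.105) at medians of 6.68 and 0.744 CPM. Apoe, the main lipoprotein of astrocytes and microglia, was at 93.1 to 205 CPM in 5 E4 libraries, 1322 in E4 replicate 2 and 336 to 641 in Ech. Its change of 0.30 (adjusted p = 0.799) became 1.56 (0.00047) without that library.

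Of 14 myeloid markers 4 fell (Itgam, Csf1r, Fcer1g and Aif1, by 3.68 to 4.34 on the log2 scale), of 6 tested neutrophil markers S100a8 fell, and of 10 tested MHC class II genes Ctss, cathepsin S, fell (-3.24). None of these 6 kept its call without E4 replicate 2. H2-Aa lay at 385 CPM in that library, 18.0 to 34.6 in the other E4 libraries and 6.55 to 48.9 in Ech. Of 18 tested complement genes 4 fell and 1 rose. C1qa and C1qb, of the C1q complex, lost their calls without that library (adjusted p = 0.082 and 0.16), while C4b, the complement opsonin, was at 959 to 1582 CPM and 506 to 969 with a touch at E4 replicate 2 and Ech replicate 4 (-0.87 ± 0.20, adjusted p = 0.0161), C4a gave -1.39 and Cd59a, an inhibitor of the lytic pore, 0.85. C4a and C4b are near-identical and may share reads. Of 11 tested T cell markers 2 fell. Cd4 was at 0.564 to 10.4 CPM in E4 and at 0 in all Ech libraries, and Trbc2 gave -2.06. By group means Cd4 was at least 4.49-fold lower against the floor, but its lowest E4 value lay under that floor. The T cell sum was 16.4 to 89.0 CPM in E4 and 1.36 to 36 in Ech, and 2 of the 12 markers stayed at or below 3 counts in every Ech library against 0 in E4. Ighm (-2.24) was the 1 of 3 tested B and plasma cell markers that fell. Once the title number was a term, no myeloid, neutrophil, MHC class II or B and plasma cell gene passed, 1 complement gene rose and 1 fell, and 1 T cell marker fell. Without E4 replicate 2 complement held 1 gene that rose and 2 that fell, and 1 T cell and 1 B and plasma cell marker fell. The part of these cells in the results above was not tested.

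Among 27 tested cytokines and growth factors 3 rose and 4 fell, against 2.9% and 2.7% of all genes. Tgfb2, a TGF-beta ligand, was at 4.51 to 11.2 CPM (median 8.13) in E4 and 16.9 to 41.6 (median 34.6) in Ech, without overlap (1.94 ± 0.32, adjusted p = 0.00149). Hbegf, an EGF receptor ligand, was at 12.4 to 16.9 CPM and 23.2 to 57.8, also without overlap (1.46 ± 0.25, adjusted p = 0.00263). Bmp4, a bone morphogenetic protein, rose by 2.49. Fgf1 and Il18 fell without overlap (-0.97 and -0.78), and Il1b (-4.09) and Tgfb1 (-4.79) also fell but lost their calls without E4 replicate 2. Of 26 tested genes of WNT, BMP, TGF-beta and NOTCH signalling 3 rose (Dll3 by 1.89, Dkk3 by 1.51 and Wnt7b by 1.38) and Hhip fell (-1.57). Of 26 tested STAT3, NF-kB and C/EBP genes Lifr, the LIF receptor, was at 52.5 to 114 CPM in E4 and 12.2 to 36.7 in Ech (-1.40 ± 0.25, adjusted p = 0.00327), and Cebpa (-1.86) fell only with E4 replicate 2 in the fit. Under the title-number term 2 cytokine genes rose and 1 fell, 1 signalling gene fell and 1 STAT3, NF-kB or C/EBP gene fell. Without E4 replicate 2 the cytokines held 3 genes that rose and 2 that fell, the signalling genes 3 and 2, and the STAT3, NF-kB and C/EBP genes 0 and 2.

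Of 28 tested synapse-organizing genes 6 rose and 2 fell, against 2.9% and 2.7% of all genes. Lrrc4, a postsynaptic adhesion protein, was at 13.9 to 46.3 CPM (median 32.5) in E4 and 63.1 to 131 (median 93.9) in Ech, without overlap (1.62 ± 0.25, adjusted p = 0.00105), and Nlgn3, a neuroligin, was at 19.8 to 44 and 41.8 to 121 (1.62 ± 0.27, adjusted p = 0.00164). Slitrk2 (1.53), Gria2 (1.41), Nlgn2 (1.08) and Nlgn1 (1.04) rose. Megf10 fell (-0.91), and Mertk (-1.98) fell only with E4 replicate 2 included. Of 50 tested matrix and scar genes 6 rose, 4 of them chondroitin sulphate proteoglycans that precursors make. Cspg5, neuroglycan C, was at 18.7 to 97.1 CPM (median 40.3) and 108 to 340 (median 234), without overlap (2.21 ± 0.34, adjusted p = 0.000979), and Ncan, Bcan and Cspg4 are given above. Nid1, a basement membrane protein, rose by 2.71 and Mmp15 by 1.67. Hapln2, a link protein of the nodes of Ranvier, fell (-0.67), as did Fn1 (-4.30), the latter only with E4 replicate 2. Of 9 neuron markers Gad1 (2.59), Slc17a6 (2.02) and Syt1 (1.91) rose, and Tubb3, at 416 to 661 CPM in E4 and 72.9 to 325 in Ech, fell (-1.32 ± 0.28, adjusted p = 0.00866). Of 27 tested Hox genes Hoxa7, at 14.4 to 40.1 and 44.5 to 98.7 CPM, and Hoxc8 rose (1.51 and 1.57). Hoxb2, at 0 in all E4 libraries and 1.41 to 5.0 CPM in Ech, also rose and was at least 3.06-fold higher by group means. Hoxc8 overlaps Hoxc5 on the same strand. When the title number was a term, 3 synapse, 4 matrix and 2 Hox genes rose and none of these fell, and no neuron marker passed. Without E4 replicate 2 the synapse genes held 7 that rose and 1 that fell, the matrix genes 8 and 1, the neuron markers 4 and 1 and the Hox genes 3 and 0.

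Of 21 glycolysis genes Ldhb rose (1.14) and Pfkfb3 (-0.96) and Aldoa (-0.74) fell, and of 15 tested lactate genes Ldhb rose and Glul and Slc16a1 fell. Among all genes 2.9% rose and 2.7% fell. Gclm (-0.94) and Gstm1 (-0.85), both of glutathione metabolism, fell among 27 metallothionein, antioxidant and hypoxia genes. None of these 3 lists held a call with the title-number term. Without E4 replicate 2, 3 glycolysis genes rose and 1 fell, 2 lactate genes rose and 2 fell, and 2 of the 27 fell. None passed among 19 tested chemokines, 10 T cell ligands, 13 blood-brain barrier genes, 29 immediate early and stress genes, 13 mitochondrially encoded genes or 4 myelination support genes. Ccl6 and Cxcl14 gave -3.17 (adjusted p = 0.159) and 0.27 (0.625), Cd274, the ligand PD-L1, and Vsir -1.44 (0.124) and -1.39 (0.217), Kcnj10, a potassium channel, -0.53 (0.099), Jun and Hsp90aa1 0.16 (0.768) and -0.40 (0.216), mt-Nd4 and mt-Cytb -0.39 (0.374) and 0.14 (0.826), and Pdgfa and Scap 0.38 (0.312) and 0.19 (0.734). Of the other marker lists, Pdgfra alone rose among 5 fibroblast and Cspg4 alone among 7 mural markers, and none passed among 4 endothelial, 7 ependymal, 6 Schwann cell and 3 erythroid markers. A title-number term left 1 fibroblast and no mural marker that rose, and without E4 replicate 2, 2 fibroblast and 1 mural marker rose and 1 endothelial marker and 1 blood-brain barrier gene fell. Endothelial sums were 18.4 to 40.9 CPM in E4 and 1.5 to 14.8 in Ech, and Kdr, a VEGF receptor, gave -1.89 (adjusted p = 0.0651).

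The change from E4 to Ech was then compared with that in the hindbrain, in 1 fit over the 66 EAE libraries (23324 genes). It differed from the hindbrain GLAST- cells for 91 genes that were higher in the cord difference (0.39%) and 40 lower (0.171%), and from the GLAST+ cells for 217 higher (0.93%) and 322 lower (1.38%). In the hindbrain itself 0 genes rose and 20 fell in the GLAST- and 672 rose and 287 fell in the GLAST+ cells. Every hindbrain GLAST- library has a title number up to 56 and every GLAST+ library one above 56, so in these differences the hindbrain population and that number cannot be told apart. The libraries were treated as independent in this fit. The undefined identifier in the titles was shared by 8 of the 12 cord libraries with GLAST- and by 8 with GLAST+ hindbrain libraries of the same stage, and the deviations of such libraries from their group means correlated by -0.05 to 0.17 in both. With that identifier as a fixed block, an alternative chosen after the data were seen, the counts were 232 and 61 against GLAST- and 270 and 301 against GLAST+ cells. As a random term in limma voom it gave 51 and 52, and 230 and 296. The 10 differences named for their low adjusted p-values kept their call with the block. They were picked from these same libraries, so this was close to fixed in advance and is no separate support.

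The 8 precursor markers held no gene that differed from the hindbrain GLAST- cells (median difference 0.96). Against the GLAST+ cells 2 of the 8, Olig1 (difference -2.06) and Olig2, were lower in the cord difference and none was higher, with a median of -0.97. In those GLAST+ cells 4 of the 8 rose themselves, with a median log2 fold change of 1.84 against 1.26 in the cord in the same fit. Genes of the longer precursor list did differ, but that list was added after the cord values were seen. The cord change is part of each difference, so the counts of this list are no separate support. Cacng4 changed by 2.01 ± 0.21 in the cord in this fit, -0.45 ± 0.21 in the GLAST- and -0.13 ± 0.23 in the GLAST+ hindbrain cells, so that the cord difference exceeded them by 2.46 ± 0.30 (adjusted p = 1.16e-07) and 2.14 ± 0.32 (1.96e-05). Marcks changed by 2.20 in the cord and 0.00 in the hindbrain GLAST- cells (difference 2.20 ± 0.35, adjusted p = 0.00019). Abhd2, Scrg1 and Cntn1, an axonal adhesion molecule, differed by 2.18, 1.85 and 1.71. Of the 30 added precursor genes 7 were higher in the cord difference than in GLAST- and 6 than in GLAST+ hindbrain, and none was lower. With the identifier block 3 of the 8 markers and 11 of the 30 genes were higher than in GLAST- cells, and against GLAST+ cells 2 of the 8 were lower and 8 of the 30 higher. With limma voom, with that block or without it, 0 of the 8 markers differed from either population. Of the 30 genes, 4 were then higher than in GLAST- and 6 than in GLAST+ cells. Pdgfra and C1ql1 did not pass against either population (differences of 2.05 ± 0.70 and 2.06 ± 0.74 against GLAST-, adjusted p = 0.16 and 0.17).

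Myelin, sterol and interferon genes were among the differences from the hindbrain GLAST+ cells. Of 10 oligodendrocyte markers 7 were lower in the cord difference: Mobp changed by -1.96 in the cord and 0.42 in the GLAST+ cells (difference -2.38 ± 0.61, adjusted p = 0.0211). Of 19 cholesterol enzymes 4 were lower, with Msmo1 at -1.02 and 0.36 (difference -1.38 ± 0.28, adjusted p = 0.00266). Of 23 interferon-gamma GTPases 8 were higher, since Igtp changed by -1.73 in the cord and -5.30 in the GLAST+ cells (difference 3.56 ± 0.79, adjusted p = 0.00581). With the identifier block 8, 5 and 12 members of these 3 lists differed, but with limma voom, with that block or without it, 0, 2 and 2 did. B2m changed by -1.25, -1.46 and -1.47 in the 3 populations, and the differences of 0.21 ± 0.44 and 0.22 ± 0.47 did not pass. Slc7a11, the cystine transporter, differed by -5.15 ± 0.69 (adjusted p = 3.67e-06), from -2.87 in the cord and 2.28 in the GLAST+ cells, and Slc24a2, Apln and Cadm1 differed by -3.28, -2.69 and -2.18.

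**Figure D5:**
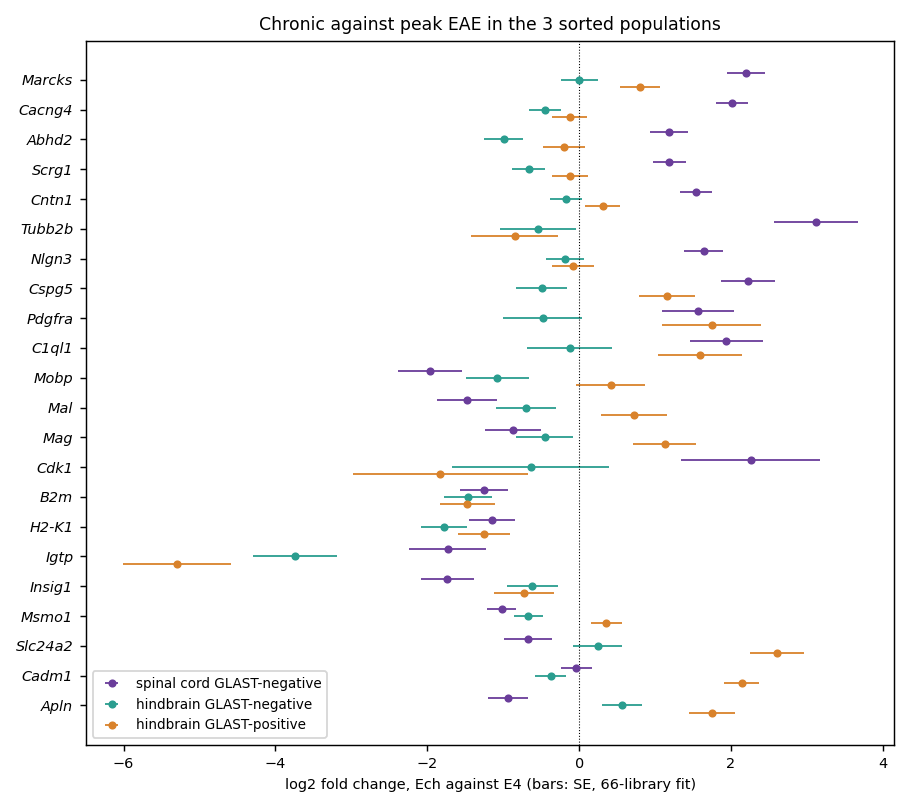
Log2 fold change from E4 to Ech (points) with its SE (bars) for 22 genes in spinal cord GLAST-, hindbrain GLAST- and hindbrain GLAST+ cells, from the fit over 66 libraries. Cacng4 lies at 2.01 in the cord, -0.45 and -0.13 in the hindbrain, and B2m between -1.25 and -1.47 in all 3.

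Set beside the controls, which both stages share, the chronic levels lay on either side. Every control library has a title number above 56 and most E4 libraries do not. In the values of E4 against controls, stage and that number are therefore hard to tell apart. Values against controls were not refitted with a term for it. Ccnd1 was at 21.5 to 75.8 CPM in control cord and above that in all Ech libraries, Marcks at 160 to 346 in controls against 432 to 1066 in Ech, and Cdk1 at 0 to 1.4 against 29.0 to 77.8. The log2 fold changes of Pdgfra against controls were 0.69 ± 0.49 at E4 and 2.26 ± 0.52 at Ech, and those of Mobp 3.12 ± 0.47 and 1.16 ± 0.43. For H2-K1 they were 3.21 ± 0.35 and 2.06 ± 0.33, and for Igtp 5.96 ± 0.68 and 4.23 ± 0.63. Insig1 gave -0.17 ± 0.35 at E4 and -1.90 ± 0.36 at Ech, and Msmo1 -0.86 ± 0.20 and -1.88 ± 0.20, so these sterol genes were below controls in chronic disease. Tubb2b gave -2.05 ± 0.54 and 1.07 ± 0.54, and Hoxa7 lay at 53.0 to 130 CPM in controls, above all 6 E4 libraries.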

How the data were processed

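RNA of the 12 libraries was converted with the QuantSeq 3′ FWD kit and sequenced on an Illumina HiSeq. Per the study's methods and the labels, the authors aligned reads to GRCm38 with HISAT (0.1.5) and SAMtools and deposited raw counts per gene from HTSeq (0.6.1p1, union mode, in which a read over 2 genes is counted for neither). The strand setting is not given in the sources used here, so reads of antisense neighbours may be shared. The table held 48526 genes, of which 48058 matched a symbol of GENCODE M21 (GRCm38). No 2 libraries held identical values.

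Groups were taken from the titles of the samples. From the deposited counts, genes whose counts summed to 10 or more in the fitted libraries were tested with edgeR 4.0.16 (R 4.3.3, TMM scaling, quasi-likelihood F-test, two-sided, Benjamini-Hochberg adjustment over all genes). Ech was fitted against E4 on the 12 libraries alone, and differences between regions and values against controls were taken from 1 fit of 66 libraries in 12 groups. The script was tested on simulated counts. CPM are scaled over the 66 libraries. A total of 3 counts served as the floor, and counting error alone is covered by it.

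Genes named were those the study names for EAE astrocytes, the 10 largest DEGs in each direction with non-overlapping libraries and at least 5 CPM in a group, up to 4 members per direction of each of 46 gene lists (where none passed, the 2 most abundant), and the 5 lowest adjusted p-values of each difference between regions. Members and lists were chosen with earlier results of these data known, and 3 lists were added after the values were seen. Alternatives were RLE scaling, other filters, DESeq2 1.42.0, other sets of libraries, a replicate block, a term for the number that ends the library titles, leaving out each library and, added after seeing the data, a block for the identifier that titles share between regions (edgeR, and limma 3.58.1 with voom). The results of 5 genes are not reported here.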

Additional observations from a re-analysis of the deposited data

Results flagged for a closer look

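In the 6 libraries of a stage, a gene was singled out when the gap between its highest or lowest level, as log2(CPM + 1), and the next library took an unusually large part of the whole range (Dixon's ratio). Chance gives about 1 in 20 for independent tests, but these genes were partly chosen from their values here and are not independent. Of the 365 tests made 41 stood out, and 24 of the 41 were E4 replicate 2. The ratio in that library was 0.900 for Itgam, 0.908 for F11r, 0.874 for Dapp1, 0.848 for Ctss, 0.82 for Mertk, 0.802 for Ccl6, 0.791 for both H2-Aa and Csf1r, 0.756 for C1qa and 0.752 for Tmem173. It was 0.722 for Clec7a, 0.704 for Apoe, 0.703 for Fn1, 0.658 for Slitrk2, 0.653 for Arhgap45, 0.65 for C1qb, 0.644 for Tgfb1, 0.642 for Aif1 and 0.64 for Slc7a11, all of them high there. The summed myeloid markers gave 0.73 and the neutrophil markers 0.627. Kdr (0.67), Sox10 (0.635) and Cadm1 (0.632) were low in the same library. Clec7a lay at 161 CPM there against 2.33 to 8.82 in the other E4 libraries.

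In other E4 libraries, Slc1a3 (0.772) and Mmp15 (0.761) were low and Il18 (0.732) and Ndrg2 (0.633) high in replicate 4, Ldhb (0.867) and Syt1 (0.672) were low in replicate 1, and the globin genes Hbb-bs (1) and Hbb-bt (0.728) were high in replicates 3 and 6 at under 3 CPM. In Ech, Dapp1 (0.711) and mt-Cytb (0.675) were high and Npc1 (0.744) and Lifr (0.661) low in replicate 1, Msmo1 (0.833) and Pmp22 (0.679) were high in replicate 6, Fcer1g (0.663) was low in replicate 2, Grm5 (0.698) in replicate 4 and Apln (0.631) in replicate 5.

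The change from E4 to Ech differed between the cord and the hindbrain for 9 named genes, by a test of the difference in the fit over 66 libraries. Against GLAST- cells the log2 difference was 2.46 for Cacng4, 2.20 for Marcks, 2.18 for Abhd2, 1.85 for Scrg1 and 1.71 for Cntn1. Against GLAST+ cells it was 2.14 for Cacng4, -2.18 for Cadm1, -2.69 for Apln, -3.28 for Slc24a2 and -5.15 for Slc7a11. Of these, Cadm1, Apln, Slc24a2 and Slc7a11 did not pass in the cord alone (adjusted p = 0.925, 0.0625, 0.0774 and 0.0671), and Slc7a11 at the peak lay at 47.6 CPM in E4 replicate 2 and 2.82 to 8.56 in the others.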

How the results depend on the processing

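The 506 genes that rose and 471 that fell gave 507 and 472 with RLE scaling, 583 and 531 with edgeR's own expression filter, 561 and 514 with no filter beyond 1 count, and 563 and 474 when all 66 libraries entered the fit. DESeq2 called 876 higher and 756 lower (723 and 326 as DEGs), and the fit of all 22 spinal cord libraries 281 and 284 (268 and 205). A term for the title number left 170 and 126 genes (166 and 106 DEGs). Only libraries numbered up to 56 gave 0 and 0 (0 and 0 DEGs), and those above 56 hold only 1 E4 library, so no count is given. Leaving out each library gave 271 to 600 genes higher, 213 to 538 lower, 264 to 544 DEGs higher and 146 to 321 lower. Over 1.5-fold fewer genes passed without Ech replicate 2 (277 and 233), Ech replicate 5 (271 and 213), E4 replicate 6 (311 and 298) and, among lower genes, Ech replicate 6 (280).

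Differences from hindbrain GLAST- cells numbered 91 higher and 40 lower. DESeq2 gave 224 and 174, the 4 groups alone 156 and 91 and the title-number term 27 and 10. Leaving out each library gave 52 to 130 and 18 to 75, with 52 and 18 without Ech replicate 2, 53 and 20 without Ech replicate 5, and among lower genes 24, 75 and 67 without Ech replicates 6 and 4 and E4 replicate 5. Against GLAST+ cells (217 and 322) the 4 groups alone gave 96 and 154, the title-number term 79 and 148, and leaving out each library 136 to 266 and 216 to 345, with 136 without Ech replicate 2. A fixed block for the identifier that titles share between regions gave 232 and 61 against GLAST- (270 and 301 against GLAST+). The same block as a random term in limma voom, where the consensus correlation was 0.037, gave 51 and 52 (230 and 296), and limma voom without it 46 and 45 (203 and 270). Both block fits were chosen after seeing the data. The cause of the other shifts was not tested.

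With a replicate block 618 genes rose and 508 fell, and correlations of same-numbered libraries (-0.09 to 0.07) did not show that the numbers pair the samples. Among the single-gene results Sdc4 alone was classed as reversed, at 0.33 above number 56, a set with 1 E4 library. Other genes changed sign too, since 944 of the 977 called genes had the same direction in both number sets. The title-number term took 69 of 177 single-gene results below the threshold. These 177 include genes that had not passed before, and over all genes 294 of 977 calls were kept. Library totals of 1772622 to 4895220 counts limit what can be seen of genes near 3 counts.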
